A study of Homo sapiens with 14 samples.

Results

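The cells described here are the S-phase cells of SW620 colonies on days 6 and 9 of culture, 4766 of the 27657 cells kept in the 4 early single-cell libraries and of the 48282 kept in all 8. They were chosen by their own transcripts. A cell was counted as S-phase when at least 3 of RRM2, CDC45, CLSPN, PCNA, MCM5 and E2F1 had 1 or more unique molecular identifiers (UMIs, each standing for 1 captured RNA molecule) and when PLK1, HMMR and AURKA, which are expressed around mitosis, had none. These 9 genes are therefore given as a description, with no test. The reference was the 2535 cells of the same libraries in which none of the 9 genes had a UMI. As the nearest group, 3212 mitotic cells were taken, with 2 or 3 of the mitotic genes and at most 2 of the 6 S-phase genes. The remaining 17144 cells fell in neither group.

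SW620 is a line grown from a metastasis of a colorectal cancer. The study grew it as colonies for up to 15 days without passage, dissociated them and sequenced single cells by the 10x Chromium 3′ method. One line, SW620-FLAG, carried the empty FLAG vector and appears in the sample labels as SW620, while the other, SW620-TET2CD, overexpressed the catalytic domain of TET2, the enzyme that oxidises 5-methylcytosine in DNA. Neither line had a further treatment, and each line gave 1 library on day 6 and 1 on day 9. The sources used here do not say whether the lines were single clones. With 1 library for each line and day, a day, its handling and its library cannot be told apart. The p-values measure no spread between repeated cultures. They rest on the residual spread of these few libraries, moderated by a dispersion drawn from all genes, so very small ones are not to be read literally.

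S phase is the part of the cell cycle in which the genome is copied once. Origins are first loaded with the MCM2-7 helicase by the origin recognition complex, CDC6 and CDT1. The helicase is then activated by CDC45 and the GINS complex, and polymerases extend the new strands on the sliding clamp PCNA. E2F transcription factors, released from RB proteins by cyclin-CDK activity, switch on many of these genes at the end of G1, and histone genes are transcribed as DNA is made so that the new strands can be packed into chromatin.

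S-phase cells made up 15.6 to 19.1% of the cells in the 4 early libraries. Their share was 19.1% of kept cells in SW620-FLAG on day 6 (1059 cells, exact 95% interval 18.1 to 20.2%), 17.0% in SW620-TET2CD on day 6 (1385 cells, 16.2 to 17.8%), 15.6% in SW620-FLAG on day 9 (1171 cells, 14.8 to 16.4%) and 17.9% in SW620-TET2CD on day 9 (1151 cells, 16.9 to 18.8%). The intervals cover counting error only. When cells were thinned to 5000 UMIs the shares were 21.2, 17.6, 15.9 and 16.3% in the same order. Cells with fewer than 5000 UMIs were left out of these shares, so that in SW620-FLAG on day 9 they covered 5937 of 7509 cells. The same rule found 562 cells on days 12 and 15, at shares of 3.08% for SW620-FLAG and 6.86% for SW620-TET2CD on day 12, and 1.10% and 1.66% on day 15. All 4 late shares lay below all 4 early ones, also after thinning, when they were 1.23, 3.44, 0.737 and 1.26%. The share rests strongly on the 3 mitotic genes: without that condition it was 73.2, 61.0, 41.6 and 56.3% in the 4 early libraries, so that many cells with S-phase transcripts also held a UMI of PLK1, HMMR or AURKA and are not described here.

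**Figure D1:**
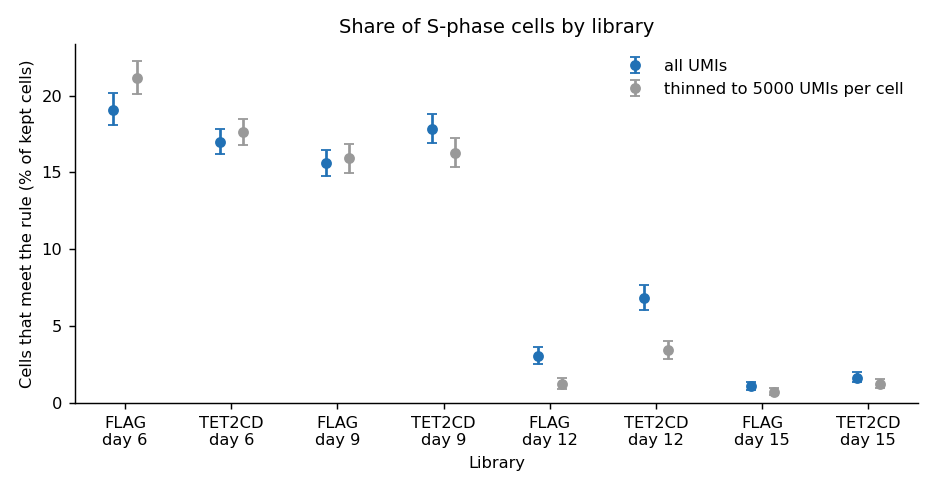
Share of kept cells (percent, y axis) that met the S-phase rule in each of the 8 single-cell libraries, with all UMIs (blue) and after thinning to 5000 UMIs per cell (grey, without cells that had fewer), and the exact 95% binomial interval as bars. With all UMIs the 4 libraries of days 6 and 9 sit between 15.6 and 19.1%, above the 4 of days 12 and 15, which sit between 1.10 and 6.86%.

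Of the genes used for the choice, PCNA, the sliding clamp, was found in 95 to 99.0% of S-phase cells and CLSPN, the checkpoint adaptor claspin, in 79.6 to 86.8%. MCM5, a subunit of the helicase, was found in 64.6 to 80.5% and RRM2, the small subunit of ribonucleotide reductase, in 57.0 to 62.6%. E2F1 was found in 37.7 to 50.4% and CDC45 in 33.7 to 40.0%. PCNA stood at 465, 396, 363 and 395 CPM (a gene's UMIs scaled to a fixed total per sum) in the S-phase cells of SW620-FLAG day 6, SW620-TET2CD day 6, SW620-FLAG day 9 and SW620-TET2CD day 9, an order of libraries kept in every list of values that follows. The most common combination was CLSPN, PCNA and MCM5 alone, in 11.7, 11.3, 14.9 and 13.4% of S-phase cells. At the edge of the rule, 1887 cells had exactly 3 of the genes and 1834 cells just outside it had exactly 2 with no mitotic gene, while 305 cells had all 6.

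The S-phase cells carried the keratins of a colorectal epithelium. Summed over the 4 libraries, KRT18 stood at 5935 CPM, KRT8 at 3944 CPM, KRT19 at 1487 CPM and the adhesion molecule EPCAM at 603 CPM. CDX2, the intestinal transcription factor, stood at 7.65 CPM, and CDX1 and CEACAM5 had 1 UMI each. Of 14 markers of blood, stroma and endothelium, 6 (PTPRC, CD3E, COL1A2, COL3A1, CDH5 and HBB) had no UMI, and the highest, LYZ, stood at 9.93 CPM. The list summed to 9.04 to 20.8 CPM in S-phase cells and to 13.6 to 27.5 CPM in reference cells. The early libraries shared 18 to 25 cell barcodes pairwise, at most 0.296% of the smaller library.

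S-phase cells were deeper than reference cells. Their median was 12990, 8263, 6788 and 11381 UMIs, against 9616, 5782, 4626 and 8145 in reference cells and 12162, 8994, 7761 and 11659 in mitotic cells. Since a deeper cell more often shows 3 genes and less often shows none, depth moves with the rule itself. Mitochondrial transcripts took a median of 3.91 to 7.68% of UMIs in S-phase cells and 5.44 to 8.54% in reference cells, lower in S-phase cells in 4 of 4 libraries. Tests were run on UMIs summed per library and state, as CPM with TMM scaling, and each S-phase comparison was repeated in cells of 8000 to 14000 UMIs. That window held 199, 57, 35 and 351 reference cells. Its median was 12018, 9316, 9454 and 11129 UMIs in S-phase and 10443, 9002, 9603 and 9284 in reference cells. The window thus narrows the depth difference without removing it, and for a call lost there depth and cell number cannot be told apart.

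Against the reference cells of the same library, many of the genes tested differed in S-phase cells. Of 12532 genes tested, 3560 were higher (28.4%) and 3663 lower (29.2%) by edgeR's quasi-likelihood test with library as a block and an adjusted p under 0.05. Of the 3560, 261 fell below the limit of the count filter in at least 1 reference sum. Of the 3663, 447 fell below it in at least 1 S-phase sum. These counts rest in that part on the filter. With upper-quartile scaling the split was 2914 higher and 4530 lower, and the median log2 difference of all genes moved from -0.04 to -0.13. In the window of 8000 to 14000 UMIs, 4502 of 10774 genes were called, and of the 12532 genes 5112 were called with DESeq2 and 5106 without the library block. Because so many genes differ, a call alone says little here, and size and the 4 libraries' own values are given.

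Replication genes were among those with the largest differences. CDC6, the loader of the MCM helicase, stood at 64.1, 70.4, 69.5 and 66.7 CPM in S-phase cells and at 2.14, 4.11, 6.16 and 1.93 CPM in reference cells, a log2 difference of 4.23 ± 0.14 (SE, n = 4 libraries, edgeR adjusted p = 2.98e-19). MCM10, which holds the activated helicase on DNA, stood at 48.3, 54.3, 54.7 and 51.3 CPM against 0.714, 0.881, 3.19 and 1.40 CPM. Its reference values rest on 2, 3, 15 and 8 UMIs, and the ratio of the summed counts was 30.4 with a counting interval of 21.0 to 45.8. In both genes the lowest S-phase library was far above the highest reference library. How many of all genes tested did not overlap was not counted. Among called genes with a mean of at least 8 CPM, the 12 with the largest positive differences were taken. Of these 12, 9 fell below the limit of the count filter in at least 1 reference sum, so they were tested only because they were high in S-phase cells. Those 9, MCM10 among them, are given as descriptions with no test, by the ratio of their summed counts and its counting interval. CDC6, XRCC2 and HIST1H1B reached the limit in every sum.

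ORC1, the cell cycle-regulated subunit of the origin recognition complex, had a ratio of 17.1 (10.46 to 30.07) and DSCC1, of an alternative clamp loader, one of 16.4 (11.5 to 24.2). ESCO2, the acetyltransferase that establishes cohesion on new sister chromatids, stood at 22.6, 26.4, 37.1 and 26.8 CPM against 0.714, 1.76, 1.70 and 1.23 CPM, on 23 reference UMIs (ratio 19.5, interval 12.9 to 30.9). PKMYT1, a kinase that holds CDK1 inactive, had a ratio of 20.9 (13.5 to 34.3). KIFC1, a minus-end spindle motor, stood at 15.0, 20.3, 24.4 and 17.8 CPM against 0.714, 0.881, 1.70 and 0.350 CPM, on 15 reference UMIs (ratio 20.6, interval 12.4 to 36.9), and ERCC6L, a DNA translocase of anaphase bridges, had a ratio of 19.1 (11.5 to 34.2). Homologous recombination was represented by PSMC3IP with a ratio of 18.7 (12.9 to 28.2), the helicase BLM with 14.6 (10.52 to 20.78) and XRCC2, which was higher by a log2 difference of 3.93 ± 0.16. HIST1H1B, a linker histone, completed the list with 84.7, 107, 183 and 89.2 CPM against 4.29, 5.28, 11.7 and 4.55 CPM (4.15 ± 0.09).

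**Figure D2:**
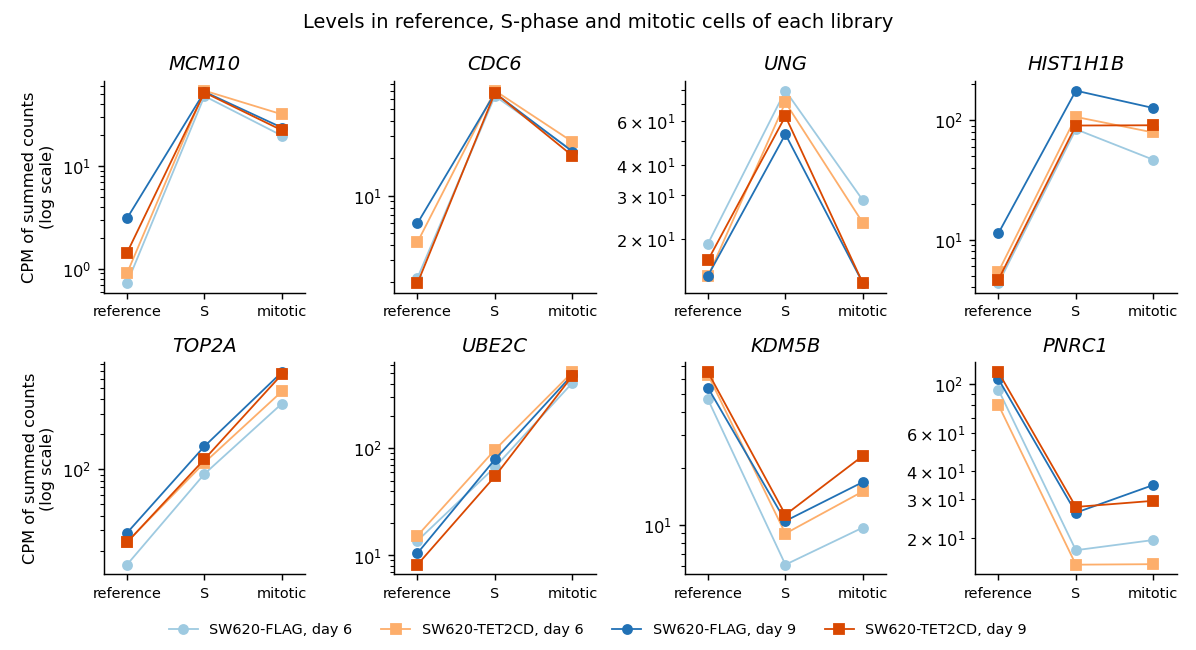
CPM of summed counts without TMM scaling (log scale, y axis) of 8 genes in the reference, S-phase and mitotic sums, with 1 point per library. MCM10, CDC6 and UNG peak in S-phase cells, TOP2A and UBE2C climb on to mitotic cells, and KDM5B and PNRC1 are highest in reference cells, in all 4 libraries.

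The promoters of genes with the largest differences are shown because these genes were high in the same cells as the genes of the rule. Each line gives the 250 bases before the RefSeq start on GRCh38.p14, read 5′ to 3′ on the gene's strand. Capitals mark matches on either strand to CCAAT or to an E2F-site form, for which the letters TTCCCGC were searched, then the letters TTCGCGC, then the letters TTGCCGC, then the letters TTGGCGC, and RRM2 is given for comparison as a gene of the rule. They lie at chr10:13161308-13161557 (plus strand, MCM10), chr6:33391573-33391822 (plus, KIFC1), chrX:72239028-72239277 (minus, ERCC6L), chr17:40287629-40287878 (plus, CDC6) and chr2:10122489-10122738 (plus, RRM2). ESCO2, PKMYT1 and MCM5 have no entry in the table used.
MCM10: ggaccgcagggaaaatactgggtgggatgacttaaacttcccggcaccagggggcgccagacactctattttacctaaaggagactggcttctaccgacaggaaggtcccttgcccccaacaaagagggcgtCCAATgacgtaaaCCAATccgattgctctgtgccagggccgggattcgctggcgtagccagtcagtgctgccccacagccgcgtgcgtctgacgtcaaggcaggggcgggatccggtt
KIFC1: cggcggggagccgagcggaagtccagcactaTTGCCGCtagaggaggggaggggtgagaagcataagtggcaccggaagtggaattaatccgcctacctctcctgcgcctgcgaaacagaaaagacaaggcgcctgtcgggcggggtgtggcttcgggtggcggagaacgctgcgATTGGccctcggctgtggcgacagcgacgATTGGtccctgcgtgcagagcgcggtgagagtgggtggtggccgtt
ERCC6L: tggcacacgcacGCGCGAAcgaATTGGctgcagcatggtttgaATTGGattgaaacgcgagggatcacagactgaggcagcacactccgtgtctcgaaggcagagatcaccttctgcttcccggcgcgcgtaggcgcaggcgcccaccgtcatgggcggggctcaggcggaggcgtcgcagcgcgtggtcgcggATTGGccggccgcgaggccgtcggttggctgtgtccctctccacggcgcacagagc
CDC6: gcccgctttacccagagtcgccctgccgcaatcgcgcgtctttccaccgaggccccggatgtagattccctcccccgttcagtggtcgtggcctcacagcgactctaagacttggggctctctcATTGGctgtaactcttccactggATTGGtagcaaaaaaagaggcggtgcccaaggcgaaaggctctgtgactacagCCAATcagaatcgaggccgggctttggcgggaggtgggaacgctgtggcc
RRM2: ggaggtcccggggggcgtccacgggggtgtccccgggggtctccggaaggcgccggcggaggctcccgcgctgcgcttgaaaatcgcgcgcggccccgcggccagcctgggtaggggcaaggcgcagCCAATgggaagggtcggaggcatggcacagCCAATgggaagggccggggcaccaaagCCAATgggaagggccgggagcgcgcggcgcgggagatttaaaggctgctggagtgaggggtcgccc
All 5 windows held CCAAT, 2 times in MCM10 and KIFC1 and 3 times in ERCC6L, CDC6 and RRM2. An E2F form was matched 1 time in KIFC1, with its first base 219 bases before the start, and 1 time in ERCC6L, 238 bases before it. Only the exact letters named above were searched. A window without a match, as in MCM10, CDC6 and RRM2, is thus not shown to lack an E2F site.

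Over whole gene sets, windows of the same length before the GENCODE start were searched on both strands. Of all genes tested against reference cells (12492 of 12532 matched), 17.9% held an E2F form, 34.8% held CCAAT and 9.44% held a CHR element (TTTGAA or TTCGAA), the element of late cell cycle genes. Of the genes called higher by a log2 difference of at least 1 (731 of 733 matched), 30.1% held an E2F form, 49.0% CCAAT and 18.6% a CHR element. The genes called lower by at least 1 held them in 8.56, 34.6 and 9.63%. Both sets include genes below the limit of the count filter in the group where they were low, such as MCM10 and TP53INP1. The shares of both sets thus rest in part on the filter. A match is a description of letters and says nothing of a factor's binding, and CpG content was not matched between the sets.

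The replication machinery was higher almost as a whole. Of 17 origin licensing genes 13 were higher and none lower, with a median log2 difference of 2.31 against -0.04 over all genes. ORC6, of the origin recognition complex, was higher by 3.34, MCM4 by 2.58, MCM7 by 2.42, MCM3 by 1.98 and GMNN, the licensing inhibitor geminin, by 2.31, whereas ORC4 gave -0.12 and was not called. All 16 genes of helicase activation and the fork were higher (median 2.36), among them GINS2 by 2.56, TIMELESS by 1.88 and the activator TOPBP1 by 1.45. TOP1, which relieves supercoils ahead of forks, gave only 0.10 and changed sign to -0.043 in cells thinned to 5000 UMIs. Of 28 genes of DNA synthesis 27 were higher (median 2.23). Among the members called higher here and in the lists that follow, some fell below the limit of the count filter in at least 1 reference sum. They were 1 of the 13 licensing genes, 6 of the 16 helicase and fork genes, 2 of the 27 of DNA synthesis, 6 of the 20 of E2F and cyclin control, 8 of the 30 of the checkpoint and repair, 1 of the 9 of cohesion and 7 of the 30 of mitosis, and 0 of the nucleotide and histone supply genes. The counts of those lists rest in that part on the filter.

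Within DNA synthesis, FEN1, the flap nuclease of lagging strands, stood at 161, 179, 165 and 159 CPM against 15.7, 19.7, 17.4 and 11.9 CPM (log2 difference 3.39 ± 0.08), and PCLAF, a PCNA partner, at 229, 234, 209 and 201 CPM against 31.1, 41.7, 39.1 and 25.6 CPM (2.68 ± 0.07). RFC4 of the clamp loader was higher by 2.89. The exception was POLD4, the smallest subunit of polymerase delta, at 79.9, 81.2, 88.2 and 76.6 CPM in S-phase cells and 165, 168, 182 and 157 CPM in reference cells (-1.04 ± 0.05). Its ratio hardly varied between libraries. POLD2, another subunit of the same polymerase, was higher by 0.95.

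Nucleotide supply was higher in 25 of 26 genes with a smaller median of 0.99. TYMS, which makes dTMP, stood at 192, 175, 165 and 157 CPM against 20.7, 27.9, 23.4 and 19.1 CPM (2.92 ± 0.07), RRM1, the large subunit of ribonucleotide reductase, was higher by 2.21 and DUT, the dUTPase, by 2.17. The purine enzyme PAICS was higher by 0.91. RRM2B, the reductase subunit of cells outside S phase, was the exception at -0.40 ± 0.16. Each of these enzymes was ordered alike in all 4 libraries.

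Genes that supply and place histones were higher in 15 of 16 cases (median 1.5). ASF1B, an H3-H4 chaperone, was higher by 3.82 and its paralogue ASF1A gave -0.10, which was not called. The H2A variant gene H2AFZ was higher by 1.63, the chaperone NASP by 1.55 and HMGB2 by 2.44. SLBP, which binds the stem-loop at the end of histone messages, stood at 191, 173, 151 and 162 CPM against 53.2, 53.7, 44 and 44.1 CPM (1.80 ± 0.06). Of the replication-dependent histone genes themselves, 35 of 71 passed the count filter, and 24 were called higher and 6 lower. For 14 of the 24 the passing rested on the S-phase sums, as for HIST1H2AL with 2, 2, 3 and 1 UMIs in reference and 53, 88, 116 and 117 in S-phase cells, so those calls support no direction. The 20 histone genes at or above the limit in every sum included 10 called higher and 5 called lower. Most of their messages lack a poly(A) tail, which the 3′ method captures, and near-identical copies share reads, so their single values are uncertain. HIST1H4C, the most abundant, stood at 785, 1311, 1689 and 1034 CPM against 281, 362, 497 and 349 CPM (1.67 ± 0.04). The count of histone genes called higher ranged from 13 to 40 over the alternatives tried, with 13 in the UMI window.

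Of 24 genes of E2F and cyclin control, 20 were higher and 3 lower (median 1.68). MYBL2 was higher by 3.29, TFDP1, the partner of E2F proteins, by 1.41 and CDK4 by 0.81, while CDK6 gave 0.03. RBL2, the pocket protein p130 of resting cells, stood at 15.6, 13.8, 16.1 and 15.8 CPM against 23.6, 16.7, 22.5 and 22.6 CPM (-0.48 ± 0.10). E2F2 had 269 UMIs in S-phase cells and 3 in reference cells, a ratio of 31.3 with a counting interval of 10.6 to 153. Of 31 genes of the replication checkpoint and repair, 30 were higher (median 2.65), among them RAD51AP1 by 3.75, the mismatch repair gene MSH6 by 2.23 and the checkpoint kinase CHEK1 by 1.73. The sensor kinase ATR gave 0.18 and was not called.

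Cohesion and chromatin copying held genes of both directions, with more higher than lower. Over all genes tested 28.4% were higher and 29.2% lower. The cohesin subunits SMC1A and SMC3 were higher by 1.33 and 1.06, the loader NIPBL was lower at -0.30 and the acetyltransferase ESCO1 at -0.33, with 9 of 13 higher and 2 lower in all. Among 14 genes that maintain DNA methylation and heterochromatin, 7 were higher and 2 lower. DNMT1, which copies methylation to new DNA, stood at 191, 205, 251 and 208 CPM against 56.1, 73.7, 77.4 and 65.1 CPM (1.65 ± 0.05). UHRF1, which recruits it to hemimethylated sites, stood at 76.4, 78.8, 68.2 and 85.9 CPM against 6.43, 10.6, 6.80 and 8.58 CPM (3.26 ± 0.10), and the remodeller HELLS was higher by 2.65. The TET2 value, which includes the introduced transcript only as far as the authors' count assigned it, was 1.39, 99.2, 1.83 and 50.8 CPM in S-phase cells and 6.07, 84.0, 4.68 and 60.7 CPM in reference cells. It was not called (-0.10 ± 0.12, edgeR adjusted p = 0.511), and it became a call in the UMI window (-0.38) and without the day 6 SW620-TET2CD library (-0.41).

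**Figure D3:**
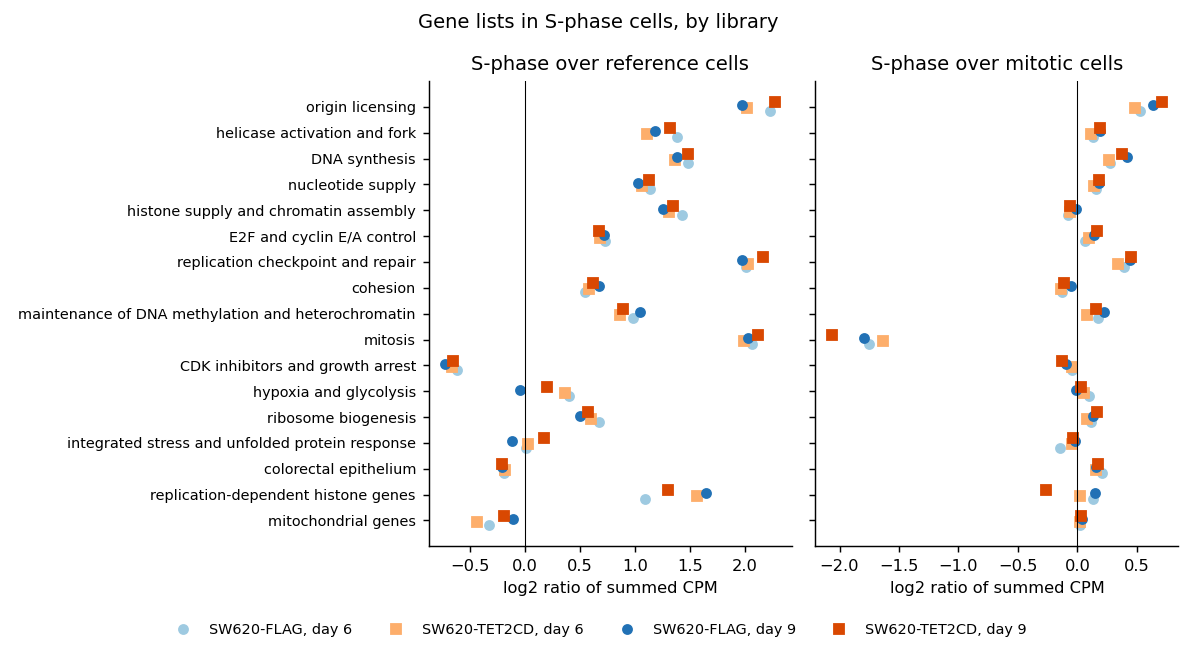
Log2 ratio of the summed CPM of each gene list (x axis) in S-phase over reference cells (left) and over mitotic cells (right), 1 point per library. Origin licensing lies above 0 for all 4 libraries on both sides, and mitosis lies above 0 on the left and below 0 on the right.

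The 8 deepest falls were of unlike functions. SLCO4A1-AS1, a long noncoding RNA antisense to a transporter gene, stood at 4.92, 5.38, 6.82 and 7.79 CPM in S-phase cells against 52.1, 51.1, 51.2 and 55.8 CPM in reference cells (-3.07 ± 0.10, edgeR adjusted p = 2.98e-19). KDM5B, a demethylase of histone H3 lysine 4, stood at 6.16, 9.00, 10.8 and 11.2 CPM against 46.1, 61.6, 55.5 and 63.9 CPM (-2.62 ± 0.09). HBP1, a repressor of cell cycle genes, was lower at -2.36 ± 0.17. PNRC1 was lower at -2.17 ± 0.07 and KLHL24 at -2.26 ± 0.14, LEMD1 at -2.37 ± 0.12 and the exonuclease ISG20 at -2.32 ± 0.12. DDIT4, an inhibitor of mTORC1 induced by stress, stood at 3.89, 2.35, 21.3 and 5.77 CPM against 8.22, 8.22, 109 and 20.8 CPM (-2.04 ± 0.13), with its highest values in both states in SW620-FLAG on day 9.

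CDK inhibitors and growth arrest genes were lower in 12 of 18 cases and higher in 2 (median -0.68). Of the 12, SESN2 and TP53INP1 fell below the limit of the count filter in S-phase cells and passed through the reference sums, and the other 10 did not rest on it. TXNIP, an arrestin-like growth suppressor, stood at 158, 151, 179 and 173 CPM against 284, 265, 417 and 386 CPM (-1.02 ± 0.05), BTG1 was lower at -0.78 and GADD45A at -0.71. CDKN1B, the inhibitor p27, stood at 8.66, 9.58, 11.2 and 10.7 CPM against 11.1, 13.8, 15.9 and 15.9 CPM (-0.51 ± 0.12), and CDKN1A, the inhibitor p21, at 3.5 CPM or less in every sum, was not called. The 2 that were higher were CDKN2D (0.95) and CDKN2A (0.12). In the UMI window neither was called, and 9 members were lower.

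Of 16 genes of ribosome biogenesis and MYC, 13 were higher and 1 lower (median 0.62). NOLC1 was higher by 1.05, NOP56 by 0.97 and NCL by 0.78, and the 1 that was lower was MYC itself, a transcription factor of growth, at 128, 106, 84.4 and 97.0 CPM against 137, 118, 128 and 118 CPM (-0.29 ± 0.06), a call that was lost without the library block (-0.27). Of 18 tested genes of hypoxia and glycolysis, 4 were higher and 10 lower, against 28.4% higher and 29.2% lower over all genes. The count of 10 was 5 with DESeq2, 4 in the UMI window (with 5 higher), 6 after thinning, 4 without the library block, and 5 and 6 without the day 9 library of SW620-FLAG or SW620-TET2CD, so the excess of lower over higher members depends on the fit. The glycolytic enzymes LDHA (0.56), ENO1 (0.53), TPI1 (0.40) and GAPDH (0.18) were those higher, whereas NDUFA4L2, a hypoxia-induced mitochondrial protein, stood at 0.147, 0.168, 1.95 and 1.5 CPM against 0.714, 0.294, 26.4 and 11.2 CPM. With 2, 2, 16 and 20 UMIs in S-phase cells it passed the count filter through the reference sums, the only one of the 10 to do so, and its call supports no direction. Of 13 tested stress genes 3 were higher and 6 lower, the former not above the share over all genes. PHGDH and PSAT1 of serine synthesis were higher by 0.93 and 0.85, and the stress factor ATF3 was lower at -1.15. Of 7 tested epithelial markers 5 were lower, CDX2 most at -1.58, and EPCAM was higher by 0.22.

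The rule asked for cells without PLK1, HMMR and AURKA, yet the other mitotic genes were higher in S-phase than in reference cells. Of 31 mitosis genes 30 were higher (median 2.66). CDK1 stood at 90.8, 111, 91.0 and 75.2 CPM against 7.5, 10.9, 6.59 and 3.50 CPM (3.77 ± 0.11), and MKI67, the proliferation marker, at 108, 140, 179 and 126 CPM against 8.57, 14.7, 24.4 and 13.0 CPM (3.17 ± 0.08). CENPF was higher by 2.02 and CCNB1 by 1.60. The reference cells were chosen for the absence of those 3 genes too.

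The comparison with mitotic cells of the same libraries gives the genes that differed between those 2 groups. It shares the S-phase sums with the comparison above. Both groups were chosen by the 9 genes of the rule, so genes that move with those were favoured to differ. Of 12685 genes tested 2033 were higher in S-phase cells (16.0%) and 1895 lower (14.9%). With upper-quartile scaling the split was 2633 and 1404, and without the library block 555 genes were called. CCNE2, a cyclin of the G1/S transition, stood at 16.8, 17.1, 12.6 and 15.0 CPM in S-phase cells and at 5.13, 3.52, 1.39 and 1.51 CPM in mitotic cells (log2 difference 2.51 ± 0.16, edgeR adjusted p = 1.44e-18). CCNE1, its paralogue, stood at 12.3, 14.0, 9.27 and 13.0 CPM against 1.5, 2.67, 1.39 and 1.51 CPM (2.73 ± 0.16). Both E cyclins were higher in 4 of 4 libraries with no overlap. The share of all genes tested that did not overlap was not counted, so this does not set them apart.

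UNG, which removes uracil from DNA, stood at 81.4, 72.0, 55.1 and 62.3 CPM against 28.0, 22.9, 13.5 and 12.9 CPM (1.84 ± 0.07). MCM6, a helicase subunit, stood at 104, 84.9, 88.1 and 94.5 CPM against 36.3, 35.3, 27.4 and 24.7 CPM (1.58 ± 0.06). FAM111B, a protease, was higher by 1.71 ± 0.06, DTL, the adaptor that destroys CDT1 on PCNA, by 1.58 ± 0.07, CDC6 by 1.55 ± 0.06, RIBC2 by 1.57 ± 0.09 and WDR76 by 1.51 ± 0.09. In FAM111B and MCM6, as in UNG, every S-phase library was above every mitotic one, which likewise was not counted over all genes tested.

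The lists were closer than against the reference. Licensing genes were higher in 13 of 17 cases with a median of 0.45, DNA synthesis in 22 of 28 (0.33) and the checkpoint and repair list in 21 of 31 (0.39), with MCM2 higher by 0.86, MCM3 by 0.75, SLBP by 0.82, the chromatin assembly factor CHAF1A by 1.03 and TYMS by 0.33. Over the alternatives tried, the counts higher ranged from 10 to 13 for licensing, 13 to 23 for DNA synthesis and 15 to 23 for the checkpoint and repair. All 31 mitosis genes were lower (median -1.79). The list holds no gene of the rule, but mitotic cells were chosen for PLK1, HMMR and AURKA and S-phase cells for their absence. The choice thus favoured this direction, as it favoured higher values of the replication lists. PIF1, a helicase, stood at 2.23, 3.12, 3.66 and 1.43 CPM against 26.3, 42.8, 55.4 and 45.7 CPM (-4.04 ± 0.12). UBE2C, the ubiquitin-conjugating enzyme of the anaphase-promoting complex, stood at 68.3, 97.9, 82.0 and 54.4 CPM against 399, 508, 496 and 461 CPM (-2.64 ± 0.05). The kinesins KIF20A and CENPE were lower at -3.15 and -2.82, and CENPA, the centromeric histone, at -2.93.

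Histone messages did not separate the 2 groups as a class. Of 45 histone genes tested 9 were higher and 7 lower in S-phase cells, with 1 of each (HIST1H2AM and HIST1H2BL) below the limit of the count filter in the lower group and a median of 0.02, and HIST1H4C stood at 795, 1317, 1691 and 1038 CPM in S-phase and 745, 1353, 1635 and 1304 CPM in mitotic cells (-0.06 ± 0.03, not called). HIST1H1B was higher by 0.43 ± 0.06. Over the 12382 genes tested in both comparisons, 1071 were higher in S-phase cells against both groups and 544 were higher against the reference but lower against mitotic cells. With thresholds of 1 and 0.5 on the log2 differences, 156 genes were higher against both. Of the genes higher than in mitotic cells by at least 0.5, 22.9% held an E2F form, 9.84% a CHR element and 35.5% CCAAT in the 250 bases before the start. Of those lower by at least 1 the shares were 16.7, 51.7 and 73.3%. Over all genes tested against reference cells they were 17.9, 9.44 and 34.8%, and over those tested against mitotic cells they were not computed. The CHR and CCAAT shares of the higher set and the E2F share of the lower set were near these. Of all 2033 genes called higher and 1895 called lower, 107 and 57 fell below the limit of the count filter in the lower group.

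Within a library, the lists changed stepwise with the number of the 6 genes seen in a cell without mitotic genes. This orders cells by the rule's own genes and by depth, and no test is given. Origin licensing stood at 329 CPM with none of the 6 genes, 928 CPM with 2, 1353 CPM with 3 and 1719 CPM with all 6 in SW620-FLAG on day 6. In SW620-TET2CD on day 6 the same steps were 365, 1222, 1396 and 1595 CPM, in SW620-FLAG on day 9 385, 1236, 1466 and 1581 CPM, and in SW620-TET2CD on day 9 308, 946, 1267 and 1736 CPM. Cells just outside the threshold were thus nearer to those just inside than to the reference in all 4 libraries. CDK inhibitors ran the other way, from 1708 to 999 CPM, from 1581 to 967 CPM, from 1851 to 1167 CPM and from 1787 to 1121 CPM between none and all 6.

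**Figure D4:**
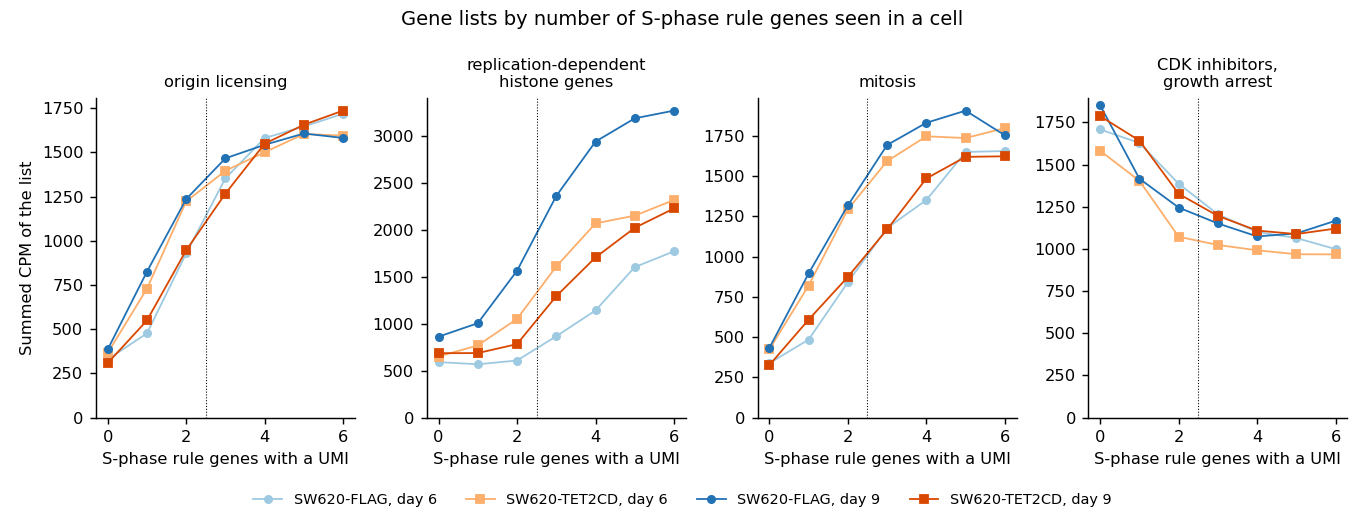
Summed CPM of 4 gene lists (y axis) in cells with no mitotic gene, by the number of the 6 S-phase genes with a UMI (x axis, 0 to 6), 1 line per library, with the threshold of the rule dotted. Origin licensing climbs from between 308 and 385 CPM to between 1581 and 1736 CPM.

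S-phase cells also varied in how much histone message they held. After thinning to 5000 UMIs, cells with 3 or more histone UMIs made up 81.1, 87.0, 90.5 and 85.6% of S-phase cells. Those with at most 2 were only 220, 175, 90 and 145 cells. Compared with these, the cells with 3 or more held more CDK1 (log2 ratios of 1.70 to 1.99 over the 4 libraries), CDCA5, the sororin of cohesion (1.19 to 1.95), CCNA2, cyclin A2 (1.09 to 1.83), and TOP2A (0.96 to 1.20). CCNA2 was low in the cells with at most 2, at 11.8, 6.86, 8.89 and 5.52 CPM. RRM2, a gene of the rule, gave 0.84 to 1.54. Of 24 genes looked at, 15 were above 0 in all 4 libraries, 2 below and 7 mixed. Among genes of the G1/S transition and of licensing, ORC1 (0.17 to 1.30), CDT1 (0.19 to 0.77), CDC45 of the rule (0.22 to 0.64), UNG (0.13 to 0.40) and CDC6 (0.0053 to 0.51) were above 0, with smaller ratios than CDK1. MCM3 gave -0.08 to 0.24 and CCNE2 -0.73 to 0.15, and SLBP gave -0.24 to -0.05 and MCM5 -0.36 to -0.03. CDK1, CDCA5, CCNA2 and TOP2A were thus higher in the histone-rich cells of all 4 libraries, CCNA2 from low values. SLBP lay below 0 in all 4, but by little, and no counting interval was made for these ratios. MCM5, also lower in all 4, is a gene of the rule. These are descriptions with no test, since cells of a library are not replicates.

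Between the lines, few of the genes tested differed in S-phase cells. Of 13385 genes tested 204 were higher in SW620-TET2CD (1.52%) and 130 lower (0.971%), in a fit of line and day over 4 sums with 1 residual degree of freedom. On days 6 and 9, TET2 stood at 98.4 and 50.2 CPM in SW620-TET2CD S-phase cells, compared with 1.39 and 1.80 CPM in the control line (5.64 ± 0.18, edgeR adjusted p = 3e-200). A TET2 UMI was found in 25.6 and 23.1% of S-phase cells of SW620-TET2CD and in 1.79 and 1.28% of those of SW620-FLAG, and in 21.6 and 22.5% against 5.67 and 2.19% of reference cells. No member of the licensing, helicase, synthesis, nucleotide, histone supply, E2F, checkpoint or mitosis lists was called, at list medians between -0.10 and 0.0001. Each of these lists holds at most 31 genes, so at the shares over all genes few calls would fall in them. DESeq2 called 32 genes and the UMI window 44 for the line, so the size of the difference between the lines depends on the fit.

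Other genes higher in SW620-TET2CD were SBSPON at 32.6 and 31.3 CPM against 1.46 and 2.17 CPM (4.19 ± 0.20), CALML3 at 35.9 and 52.2 CPM against 4.31 and 2.41 CPM (3.58 ± 0.17) and the noncoding RNA CASC15 at 35.6 and 43.4 CPM against 2.85 and 4.21 CPM (3.51 ± 0.17). AGR2, a secretory disulfide isomerase, stood at 22.3 and 8.08 CPM against 1.39 and 0.481 CPM, on 267 and 109 against 19 and 4 UMIs. It passed the count filter through the SW620-TET2CD sums, and its values are a description with no test. Lower were SERPINA1, alpha-1 antitrypsin (-1.14 ± 0.12), CA9, the hypoxia-induced carbonic anhydrase, at 13.0 and 14.0 CPM against 27.9 and 29.4 CPM (-1.08 ± 0.14), KLK1 (-1.05 ± 0.14) and SLCO1B3 (-1.05 ± 0.19). DDIT4 was called lower (-1.52 ± 0.21), with a log2(CPM + 1) difference of -0.55 on day 6 and of -1.72 on day 9, when SW620-FLAG reached 21.1 CPM. Without that day 9 SW620-FLAG library, in a fit that lacks the day term as well, the value turned to 0.068 and was not called, and without the day 6 SW620-TET2CD library it was -1.07 and not called. EGLN3, a hypoxia-induced hydroxylase, was lower too (-0.79 ± 0.16), as were the linker histones HIST1H1D (-0.45 ± 0.11) and HIST1H1B (-0.36 ± 0.11), whose values differed by line on day 9 and not in that direction on day 6. LYZ, lysozyme, on the list of other cell types, stood at 12.2 and 15.1 CPM in SW620-TET2CD and 5.84 and 4.93 CPM in the control line (1.31 ± 0.19). The other 3 markers of that list that were tested also lay above 0 and were not called, HBA1 at 0.71, CD68 at 0.52 and COL1A1 at 0.30. The 14 markers summed to 20.8 and 20.3 CPM in SW620-TET2CD S-phase cells and to 10.6 and 9.04 CPM in those of the control line, and the part of this difference in the results between the lines was not tested.

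Whether the S-phase difference from reference cells itself depended on the line was tested as an interaction. Of 13218 genes 0 were called by edgeR (0%), with 442 at an unadjusted p under 0.05. DESeq2 also called 0, with 23 at an unadjusted p under 0.05. Without the day 6 SW620-FLAG library, 27 genes were called, and 4 without the day 9 SW620-FLAG library. For TET2 the interaction was 1.72 and was not called.

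Between the days, more genes differed in S-phase cells. Of 13385 genes 620 were higher on day 9 (4.63%) and 843 lower (6.30%), with 146 called by DESeq2, 109 in the UMI window and 220 without the line term. When 1 library was left out, which drops the line term too, the count was between 41 and 533. EEF1A2, an elongation factor, stood at 8.25 and 11 CPM on day 6 and 27.5 and 24.2 CPM on day 9, the control line first (1.42 ± 0.15), the noncoding RNA OLMALINC rose by 1.35 ± 0.13 and DDIT4 by 2.02 ± 0.22. In each of these both day 9 values were above both day 6 values, most narrowly for DDIT4, with 5.70 CPM in SW620-TET2CD on day 9 and 3.87 CPM in SW620-FLAG on day 6.

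TAGLN, an actin-binding protein, fell from 9.93 and 19.2 CPM to 2.41 and 4.52 CPM (-2.07 ± 0.21), ANXA1, annexin A1, from 42.3 and 49.5 CPM to 17.7 and 14.7 CPM (-1.52 ± 0.13) and SNHG25 from 68.8 and 64.9 CPM to 19.2 and 22.6 CPM (-1.67 ± 0.12). TET2 was called lower on day 9 (-0.87, edgeR adjusted p = 2.5e-07) but not with DESeq2 (-0.40). It had 1180 UMIs on day 6 and 678 on day 9 in SW620-TET2CD, and only 19 and 15 in SW620-FLAG. AGR2, which fell below the limit of the count filter in 1 day 9 sum, had log2(CPM + 1) differences of -0.69 in SW620-FLAG, on 19 and 4 UMIs, and -1.36 in SW620-TET2CD. Its fitted value of -1.47 ran from -4.56 to 1.74 without 1 library, in fits that lack the line term as well, with the sign turned without the day 6 SW620-TET2CD library, and none of those 4 fits called it. In the replication lists few genes were called by day. Of the licensing list MCM2 (83.0 and 74.8 CPM, then 56.1 and 62.8 CPM, -0.41 ± 0.11) and MCMBP were lower. In DNA synthesis POLA1, the primase-bound polymerase, was higher (0.33 ± 0.11). Of the checkpoint and repair list ATR, WEE1 and BRCA1 were higher and UNG lower (-0.38 ± 0.11). Among histone supply genes CASP8AP2 was higher and HAT1, HMGB2 and ASF1A were lower, and in cohesion ESCO2 was higher. Of 16 genes of ribosome biogenesis and MYC, 5 were lower. Over all genes tested by day 4.63% were higher and 6.30% lower. Of 26 nucleotide supply genes 4 were lower (DCK, DHODH, SHMT1 and ADSL), and of 24 E2F and cyclin genes 3 were lower (CCND3, TFDP1 and E2F4), with none higher in either list. Of 31 mitosis genes 4 were higher, TOP2A among them at 0.44 ± 0.10, and 6 lower, CDC20 among them at -0.65 ± 0.11. In the UMI window 0 members of the licensing, DNA synthesis, nucleotide, E2F, checkpoint and mitosis lists were called by day.

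Of the lists tested, histone genes and hypoxia genes had the largest shares called higher by day. Of 49 histone genes tested 28 were higher on day 9 and none lower, 1 of them (HIST1H2BL, 5 and 9 against 18 and 17 UMIs) passing the count filter through day 9 only, with a median of 0.69, but unequally by line, a difference that was not tested. There 47 of 49 values were above 0 in SW620-FLAG (median 0.91), against 31 of 49 for SW620-TET2CD (median 0.06). HIST1H4C stood at 781 and 1301 CPM on day 6 and 1668 and 1023 CPM on day 9, so the days overlapped. Of the 28, 19 (67.9%) had both day 9 values above both day 6 values, a smaller share than among all 620 genes called higher (93.5%), and over all genes tested the share was 26.6%. The summed histone level of 1263, 1930, 2706 and 1687 CPM ran opposite to the median depth of the S-phase cells. In the UMI window 1 histone gene was called, with DESeq2 0 and without the line term 0. Leaving out 1 library drops that term too, and then 0 were called without the day 6 SW620-FLAG or the day 9 SW620-FLAG library. Without the day 6 SW620-TET2CD library it was 3, and without that of day 9 it was 16.

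Of 20 genes of hypoxia and glycolysis 8 were higher on day 9 and none lower, a median of 0.19. They were DDIT4, NDUFA4L2, NDRG1 (2.12), VEGFA (0.74), EGLN3 (0.65), ANKRD37 (0.54), P4HA1 (0.43) and the glucose transporter SLC2A1, which stood at 172 and 140 CPM on day 6 and 208 and 173 CPM on day 9 (0.29 ± 0.10). NDUFA4L2 stood at 0.146 and 0.167 CPM on day 6 and 1.92 and 1.48 CPM on day 9. With 2 and 2 UMIs on day 6 against 16 and 20 on day 9, it passed the count filter only through day 9, as did NDRG1 with 6 and 4 against 20 and 14, so 6 of the 8 calls did not rest on the filter. The count was 1 with DESeq2, 1 in the UMI window, 1 without the line term and 2 with 4 or more of the 6 genes. In the fits without 1 library, which also lack that term, it was 0 without the day 6 SW620-FLAG, the day 6 SW620-TET2CD or the day 9 SW620-FLAG library, and 5 without the day 9 SW620-TET2CD library.

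The difference between S-phase and reference cells itself changed between the days for few genes. Of 13218 genes 13 had a higher log2 difference on day 9 (0.0984%) and 12 a lower one (0.0908%), and neither DESeq2 nor the UMI window called any. LDHA, lactate dehydrogenase A, stood at 1291 and 1127 CPM in S-phase cells and 664 and 594 CPM in reference cells on day 6, and at 1134 and 919 CPM against 1140 and 640 CPM on day 9 (-0.69 ± 0.09, edgeR adjusted p = 0.000785). In SW620-FLAG on day 9 the S-phase and reference levels were nearly equal, at a log2 ratio of -0.01. CA9 stood at 28.6 and 13.2 CPM against 25.4 and 15.5 CPM on day 6 and at 29.8 and 14.2 CPM against 61.3 and 25 CPM on day 9 (-0.96 ± 0.18). P4HA1, a collagen prolyl hydroxylase, had a day difference of -0.98 ± 0.18, PGK1 of -0.58 ± 0.09, TPI1 of -0.41 ± 0.06 and GAPDH of -0.21 ± 0.04, so that 6 of the 20 hypoxia and glycolysis genes were called lower.

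The deepest such value was that of PRSS2, a trypsinogen with near-identical copies, at 7.70 and 3.05 CPM against 11.3 and 6.43 CPM on day 6 and 7.45 and 3.83 CPM against 45.7 and 16.9 CPM on day 9 (-1.68 ± 0.28, edgeR adjusted p = 0.00707). Among the genes with a higher difference, TUBA1A, an alpha-tubulin, stood at 49.9 and 57.6 CPM against 226 and 266 CPM on day 6 and 77.0 and 88.8 CPM against 237 and 313 CPM on day 9 (0.46 ± 0.09). PCSK1N (0.59 ± 0.13), NKD1, an inhibitor of WNT signalling (0.29 ± 0.06), and ASPSCR1 (0.28 ± 0.06) also had a smaller S-phase deficit on day 9. No gene of the replication, checkpoint or mitosis lists was among the 25 called.

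**Figure D5:**
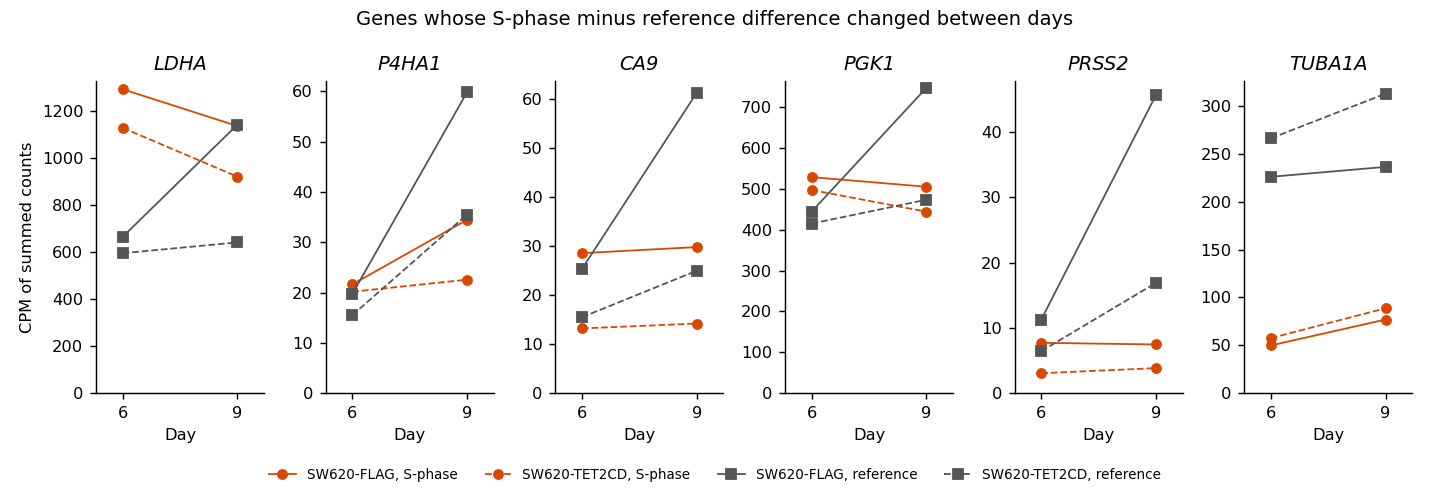
CPM of summed counts (y axis, from 0) on days 6 and 9 (x axis) for 6 genes whose S-phase difference from reference cells changed between the days. Orange circles are S-phase and grey squares reference sums, with solid lines for SW620-FLAG and dashed lines for SW620-TET2CD. Reference levels of LDHA, P4HA1, CA9, PGK1 and PRSS2 climb from day 6 to day 9 in both lines, PRSS2 from 11.3 to 45.7 CPM in SW620-FLAG.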

How the data were processed

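Single SW620 cells from dissociated colonies were sequenced with 10x Chromium 3′ chemistry. The authors deposited UMI counts per gene and cell barcode, made with Cell Ranger 4.0 against GRCh38 and not normalized. The 8 single-cell libraries were used, and the 6 bulk libraries were not used here. The cell limits (200 to 4500 genes, 1000 to 20000 UMIs, at most 10% mitochondrial UMIs) were those of the study. Doublets were not called, and as an alternative the deepest 8% of the cells were dropped. The members and the gene lists were chosen with earlier results of these data known.

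Counts were summed per library and state, with 8520917 to 13759105 UMIs per S-phase sum. Genes were filtered with filterByExpr, scaled by TMM and tested with edgeR 4.0.16 (quasi-likelihood, two-sided, Benjamini-Hochberg over all genes, threshold 0.05) in R 4.3.3, with DESeq2 1.42.0 as an alternative. The SE is the absolute log2 difference divided by the square root of F. Comparisons between states blocked on library, the line and day comparisons shared a fit with 1 residual degree of freedom, and the 9 genes of the rule were left out of the tests between states. CPM values carry the TMM factors of their own comparison, so the same sum differs slightly between comparisons. Intervals of shares are exact binomial ones at 95%.

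Named were the called genes with the largest differences (12 higher and 8 lower against reference cells, 8 and 8 against mitotic cells, otherwise 5 and 5) with the same direction in every library or block and a mean of at least 8 CPM, and of each list the 5 members with the highest CPM and those with the highest and lowest difference. For the interactions no condition on direction was set. Other genes in the text were chosen after their values were seen. A few genes that the rule names are not reported here. On simulated counts with the same designs, of 100 genes given a log2 change of 1 the fit recovered 98 against reference cells (9728 genes), 97 between lines and 96 between days (9620 genes each), 63 in the interaction with day and 57 in that with line (9728 genes each). The simulation gave every gene the same fixed dispersion and left out genes of low level. It checks the fit and does not give the recovery at the spread of these libraries. Promoter windows of gene sets came from GENCODE v44 and printed promoters from RefSeq. Python 3.11.15 with numpy 2.4.6, pandas 2.3.3, scipy 1.17.1 and matplotlib 3.10.9 did the rest. The alternatives were other scaling, no filter on low counts, no block, no cell filter, thinning to 5000 UMIs, the window of 8000 to 14000 UMIs, 4 or more of the 6 genes, and leaving out each library. Thinning left out the cells with fewer than 5000 UMIs. For line and day, the fits without 1 library drop the other term and were added after seeing the data.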

Additional observations from a re-analysis of the deposited data

Results flagged for a closer look

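In 2 of 70 sets of 4 library values, 1 library stood apart from the rest by Dixon's criterion at 95%, and chance alone flags about 1 in 20. For BLM, the log2 ratio of S-phase to reference cells was 4.21 in SW620-FLAG on day 6 and 3.25, 3.35 and 3.40 in the others. The BLM reference sums held 2 UMIs in that library and 7 to 15 in the others, so the value rests on few counts. For DTL, the log2 ratio of S-phase to mitotic cells was 1.35 in SW620-TET2CD on day 6 and 1.58, 1.59 and 1.62 in the others.

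For 10 named genes the S-phase difference from reference cells changed between day 6 and day 9 by the interaction test. The change was 0.59 for PCSK1N, 0.51 for TMEM176A, 0.46 for TUBA1A, 0.29 for NKD1 and 0.28 for ASPSCR1. It was -1.68 for PRSS2, -1.44 for AL137800.1, -0.98 for P4HA1, -0.96 for CA9 and -0.69 for LDHA. Each had the same sign of change in both lines. In none of them did DESeq2 or the window of 8000 to 14000 UMIs give a call.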

How the results depend on the processing

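Between states, the count of called genes moved beyond 1.5 times in few settings: 4502 against reference cells and 2144 against mitotic cells in the window of 8000 to 14000 UMIs, and against mitotic cells 1506 with DESeq2 and 555 without the library block. For the counts that follow, the replicate block stands for the day term in the line fit and for the line term in the day fit. It does not stand for repeated cultures. The line count of 334 became 92 with 4 or more of the 6 genes, 44 in the UMI window, 32 with DESeq2, 29 without the replicate block, 195 after thinning to 5000 UMIs and 85 to 117 without 1 library, fits which for lines and days lack the other term as well. The day count of 1463 became 471 with 4 or more of the 6 genes, 109 in the UMI window, 146 with DESeq2, 220 without the replicate block and 41 to 533 without 1 library. It was 41 and 60 without the day 6 or the day 9 library of SW620-FLAG, and 152 and 533 without those of SW620-TET2CD. The interaction with line gave 1 call in the UMI window and 0 to 27 without 1 library. The interaction with day gave 25 calls, 42 with 4 or more of the 6 genes, 0 in the UMI window, 0 with DESeq2, 131 with every barcode, 16 after thinning, 43 without a filter on low counts and 16 to 128 without 1 library. Fewer cells entered the UMI window and the stricter choice, and otherwise the cause was not tested.

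The sign changed, in fits that left out 1 library and with it the term for the other factor, for DDIT4 between the lines (-2.37 to 0.068 without 1 library, the latter without SW620-FLAG day 9), for AGR2 between the days (-4.56 to 1.74, the latter without SW620-TET2CD day 6) and for TET2 between the days (-4.76 to 4.27, with 4.27 when the day 6 SW620-TET2CD library was left out and 0.025 when the day 9 SW620-FLAG library was). In such a fit the lines or days are unequally mixed on its 2 sides, so these values are not the effect of 1 library alone. The sign also changed for TMEM176A in the interaction with day in the UMI window (-0.0047) and for TOP1 against reference cells after thinning (-0.043). Over all settings, values of named genes kept direction and side of the threshold in 2086 cases, lost the call in 114 and gained it in 18. The sign of a called value changed in 6 cases, those given above. In 26 more the sign changed of a value that the main fit had not called. Having 1 library per line and day limits every comparison of lines and days.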
